A study of Mus musculus with 4 samples.

Results

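The genes of the cytosolic ribosomal proteins were chosen by their symbols: Rpl or Rps followed by a number and at most a trailing a, together with Rplp0, Rplp1, Rplp2 and Rpsa, as protein-coding genes of the GENCODE vM1 annotation of the mouse mm9 assembly. Pseudogenes and the Mrpl and Mrps genes of the mitochondrial ribosome were dropped. Of 21418 autosomal protein-coding genes, 72 met this rule, 42 for the large and 30 for the small subunit. Another 3 genes of the rule lie on chromosome X and were not used in the comparisons.

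Ribosomal proteins build the large and the small subunit of the ribosome around ribosomal RNA. Their genes are spread over the genome, are transcribed strongly in nearly every growing cell, and begin with a pyrimidine-rich start that lets the cell regulate their translation as a group. Cohesin, of which RAD21 is the cleavable subunit, forms a ring around DNA, holds sister chromatids together and shapes chromatin loops that often end at sites bound by CTCF.

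RAD21 was mapped by chromatin immunoprecipitation and sequencing in R1/E mouse embryonic stem cells (ESCs, day 0) and in embryoid bodies (EBs, day 12), aggregates of differentiating cells grown from the same line in hanging drops. All 4 libraries came from cells that carried Rad21 with a C-terminal GFP tag on a bacterial artificial chromosome in addition to their own Rad21, so the signal is that of the tagged protein. It was precipitated with a goat antibody against GFP, and the controls were labelled as goat IgG isotype libraries, although their descriptions speak of input DNA. There was 1 RAD21-GFP and 1 IgG library for each cell type and no replicate, so no test between conditions was possible, and every interval below covers counting error only. EBs mix many cell types, so a signal in more of the cells cannot be told apart from a stronger signal in some of them. RNA was not measured in these libraries, and the cell types were not checked against markers.

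On autosomes, 13714772 RAD21-GFP and 12602155 IgG reads were available for ESCs, and 7740389 RAD21-GFP and 6929293 IgG reads for EBs. Within 1 kb of the most upstream annotated start, a ribosomal protein gene had between 2 and 35 reads in the ESC RAD21-GFP library, with a median of 10. The median was 9 reads in the EB RAD21-GFP library, 8 in the ESC IgG library and 4 in the EB IgG library. At such depth single genes are known only roughly, and most of what follows rests on their number.

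The sequences that matter most here lie at deposited RAD21-GFP sites, regions that the authors called in each cell type against its IgG library. Of the 72 genes, 5 had an EB site with its summit, the position of highest signal, within 1 kb of the start. Shown first is the EB summit upstream of Rps26 with the 101 bases around it (mm9, chr10:128063895-128063995, minus strand), with the summit base in capitals.
Rps26 summit: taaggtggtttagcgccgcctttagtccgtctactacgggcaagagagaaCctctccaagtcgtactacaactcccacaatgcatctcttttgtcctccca

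The EB sites at Rps26 and Rps27a shared a split motif, ACTACA followed after 2 bases by TCCCA, which is shown in capitals in both (Rps26 at chr10:128063911-128063939 and Rps27a at chr11:29448149-29448177, both minus strand). It resembles the core of the element recognised by the zinc finger protein ZFP143, and it was picked after these sequences had been read.
Rps26: caagtcgtACTACAACTCCCAcaatgcat
Rps27a: agtgtaaaACTACAATTCCCAgatagact
The motif lay within 150 bp of the summit at 2 of the 5 EB sites within 1 kb of a ribosomal protein gene. It did so at 10 of 450 EB sites within 1 kb of any protein-coding start, or 2.22%, and 16 of all 10781 autosomal EB sites, or 0.148%. The 2 sites are those from which the motif was read, so their count was fixed beforehand and cannot be compared with these shares. Both are also among the 10 and the 16. Within 1 kb of the start the motif was present at 7 of 72 ribosomal protein genes, or 9.72%, Rps26 and Rps27a included, and at 3.05% of all genes. Since the motif was read from Rps26 and Rps27a, their presence among the 7 was fixed beforehand, and these shares are not a like comparison. Apart from Rps26 and Rps27a, Rpl6, Rpl7, Rpl23a and Rplp2 were among the genes that held it, and these 4 had no RAD21-GFP site within 1 kb. A match says only that the letters are there.

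Away from the starts, the sites near ribosomal protein genes often held the sequence bound by CTCF. The following stretches of 60 bases carry, in capitals, the best match to a CTCF weight matrix, each printed on the strand of the motif. Those at Rps19 (chr7:25675623-25675682, plus strand), Rps21 (chr2:179986137-179986196, minus strand), Rpl29 (chr9:106324308-106324367, minus strand) and Rps28 (chr17:33963983-33964042, minus strand) lay at sites found in both cell types.
Rps19: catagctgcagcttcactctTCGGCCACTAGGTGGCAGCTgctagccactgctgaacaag
Rps21: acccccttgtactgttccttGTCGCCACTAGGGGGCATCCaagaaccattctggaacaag
Rpl29: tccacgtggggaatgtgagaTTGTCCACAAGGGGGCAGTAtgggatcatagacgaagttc
Rps28: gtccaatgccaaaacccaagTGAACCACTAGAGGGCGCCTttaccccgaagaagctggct
The site near Rpl30 (chr15:34368332-34368391, minus strand) was in the ESC list only, and the site near Rps27 (chr3:90024262-90024321, plus strand) in the EB list only.
Rpl30: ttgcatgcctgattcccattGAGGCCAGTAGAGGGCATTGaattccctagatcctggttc
Rps27: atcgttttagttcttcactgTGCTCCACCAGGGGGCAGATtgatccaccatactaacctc

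To ask where RAD21-GFP sites lie around these genes, summits were measured from the most upstream start. No ESC summit fell within 1 kb of a ribosomal protein gene, where 2.31% of all autosomal genes had one. In EBs the 5 genes with a summit within 1 kb were 6.94% of the 72, against 2.22% of all genes. Within 5 kb, 2 genes had an ESC summit (all genes 9.71%) and 8 an EB summit (all genes 7.89%). Within 10 kb the counts were 15 in ESCs and 16 in EBs, or 20.8% and 22.2%, against 18.3% and 13.3% of all genes. The ESC summit closest to a start was that of Rps28, 2484 bp upstream.

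**Figure D1:**
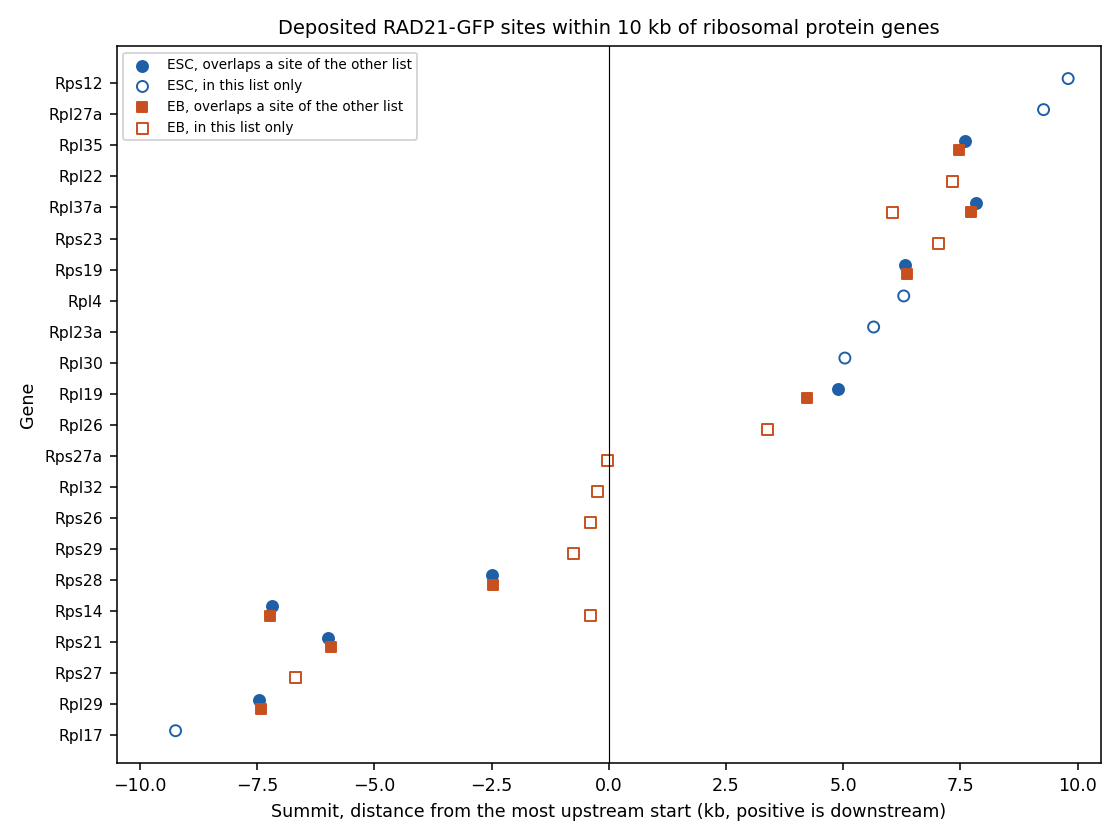
Summits of the deposited RAD21-GFP sites within 10 kb of the most upstream start, in kb along the gene's strand (x axis), for 22 of the 23 ribosomal protein genes that had one (y axis). Circles are ESC and squares EB sites, and filled symbols overlap a site of the other list. The 5 summits within 1 kb of a start are all open EB squares, and no ESC circle lies closer than 2484 bp.

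The 5 EB sites at starts lay at Rps27a, Rpl32, Rps26, Rps14 and Rps29, between 27 and 753 bp upstream. None overlapped an ESC site, and none held a CTCF match within 150 bp of the summit at either threshold used, 1e-05 or 1e-04 of random genome positions. Of all EB sites within 1 kb of a protein-coding start, 17.1% and 42.9% held one at these thresholds, and 49.1% overlapped an ESC site. The reads below chose these sites in EBs, so they are given as a description.

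Rps27a, which encodes a ribosomal protein of the small subunit fused to ubiquitin, had the site closest to its start, with the summit 27 bp upstream (chr11:29447606-29448859, score 145). The summit lay in an untranslated stretch of the neighbouring gene 1700034F02Rik, which is transcribed the other way. Within 1 kb of the start there were 35 ESC and 42 EB RAD21-GFP reads, and 23 ESC and 9 EB IgG reads. These were the highest counts of all 72 genes in both RAD21-GFP libraries and also in the ESC IgG library. In RPM, reads per 1000000 autosomal reads of the library, the EB RAD21-GFP library was 2.13 times the ESC one (95% interval 1.33 to 3.43).

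Rps26, a protein of the messenger RNA exit channel of the small subunit, had its EB summit 383 bp upstream (chr10:128063593-128064395, score 71.1), outside any annotated gene. Within 1 kb of the start it had 21 ESC and 29 EB RAD21-GFP reads, against 12 and 10 IgG reads. The EB to ESC ratio of RAD21-GFP in RPM was 2.45 (1.35 to 4.51). At Rps14, whose human counterpart is lost in a form of myelodysplastic syndrome, the summit was also 383 bp upstream, with 10 ESC and 19 EB RAD21-GFP reads within 1 kb of the start and 10 and 6 IgG reads. Its ratio was 3.37 (1.49 to 8.11). In both genes the EB RAD21-GFP library stood above the other 3 in raw reads, although it was the second smallest library.

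The EB summit of Rpl32 lay 249 bp upstream (chr6:115758837-115759193, score 53.5), with 8 ESC and 13 EB RAD21-GFP reads and 12 and 10 IgG reads within 1 kb. Here the EB RAD21-GFP count was close to the IgG counts of both cell types in raw reads. Scaled to library size it was 1.68 RPM, against 1.44 in the EB and 0.952 in the ESC IgG library. Rps29, a small zinc-binding protein of the small subunit, had the farthest of the 5 summits, 753 bp upstream (chr12:70260561-70261099, score 52.4), and the lowest score. It had 12 ESC and 18 EB RAD21-GFP reads against 12 and 5 IgG reads. The lowest score in both deposited lists was 50.01, so Rpl32 and Rps29 were just inside the authors' limit.

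Beyond 1 kb, 13 EB and 15 ESC sites lay within 10 kb of a ribosomal protein gene. Of the 15 ESC sites, 8 overlapped an EB site (53.3%, against 48.6% of all autosomal ESC sites), and 8 of the 13 EB sites overlapped an ESC site (61.5%, against 68.3% of all autosomal EB sites). A CTCF match at the stricter threshold was present at 8 of the 15 ESC sites and 7 of the 13 EB sites, and in 40.03% of all ESC and 40.1% of all EB sites. At the looser threshold the counts were 11 of 15 and 11 of 13, against 75.4% and 71.5%. In both respects the sites 1 to 10 kb from these genes had shares near those of RAD21-GFP sites as a whole at these small numbers. Most lay outside genes: 10 of the 15 ESC sites and 12 of the 18 EB sites within 10 kb, the 5 at starts included. The share outside genes over all RAD21-GFP sites was not counted, so whether these sites differ from others in this is not known.

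The genes with an overlapping site in both lists were Rpl19, Rpl29, Rpl35, Rpl37a, Rps14, Rps19, Rps21 and Rps28. The pair upstream of Rps28 lay in an intron of Ndufa7, a gene of the respiratory chain, whose start was closer than that of Rps28. Within 250 bp of its EB summit there were 15 ESC and 23 EB RAD21-GFP reads and 1 IgG read in each cell type, an EB to ESC ratio of 2.72 (1.36 to 5.60). Upstream of Rps21 the highest ESC score near any of these genes, 270.3, went with 48 ESC and 19 EB RAD21-GFP reads and a ratio of 0.701 (0.389 to 1.22). Downstream of Rps19, the gene most often mutated in Diamond-Blackfan anaemia, the counts were 20 ESC and 17 EB RAD21-GFP reads around the ESC summit, and the ratio was 1.51 (0.741 to 3.03).

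At the site near Rpl30, in the ESC list only, 16 ESC and 6 EB RAD21-GFP reads within 250 bp of the summit gave an EB to ESC ratio of 0.664 (0.213 to 1.79). At the ESC-only site near Rpl23a 22 and 9 reads gave 0.725 (0.294 to 1.64), and both intervals included 1. The site near Rpl23a lay closer to the start of Tlcd1, in an untranslated stretch of that gene. Inside a ribosomal protein gene, the EB-only site in an intron of Rpl26, 3391 bp downstream of the start, had 23 ESC and 24 EB RAD21-GFP reads and a ratio of 1.85 (0.999 to 3.43). At these 3 sites both libraries held reads although only 1 list held the site.

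Reads at the starts were compared next, without use of the site lists. In EBs the RAD21-GFP density was highest just upstream of ribosomal protein genes, above both the ESC RAD21-GFP and the IgG libraries. From 500 to 250 bp upstream it was 1.03 RPM per kb and gene in the EB RAD21-GFP library and 0.595 in the ESC one, with 0.457 and 0.454 in the EB and ESC IgG libraries. In the 250 bp before the start the values were 0.998, 0.551, 0.465 and 0.414 in the same order. Over all genes the 4 libraries lay between 0.292 and 0.557 in these 2 bins.

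**Figure D2:**
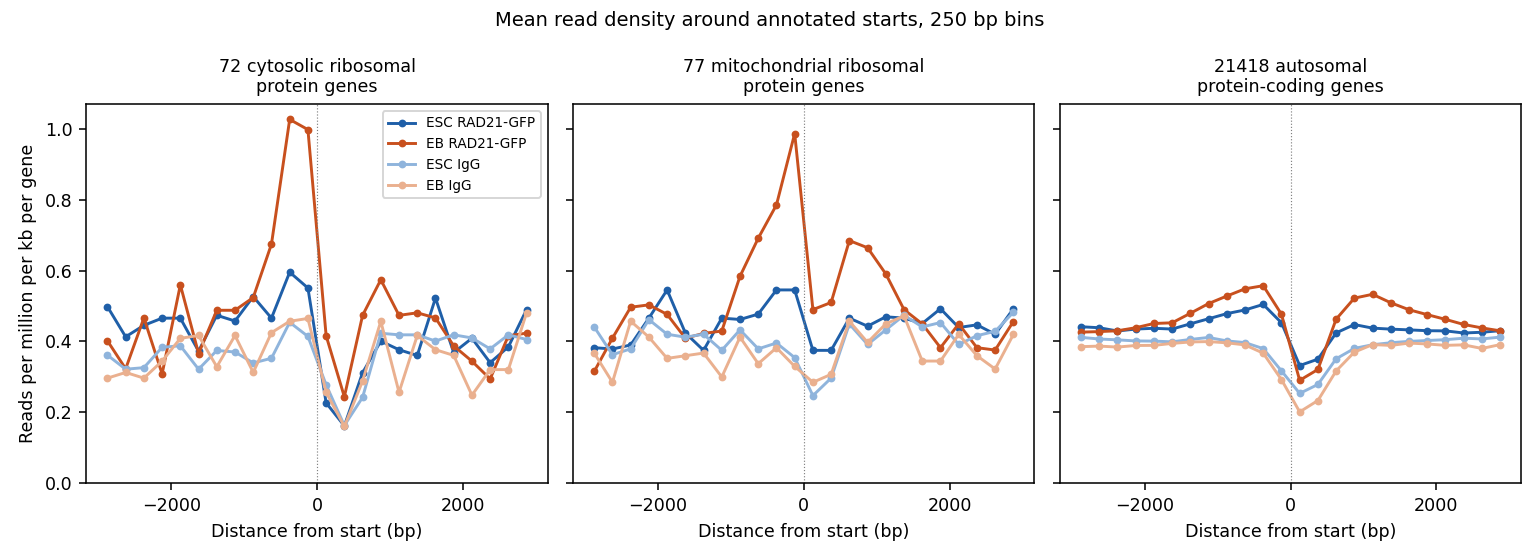
Mean read density (y axis, RPM per kb per gene) in 250 bp bins from 3 kb upstream to 3 kb downstream of the annotated start (x axis, bp), for the 4 libraries as coloured lines. Left, the 72 cytosolic ribosomal protein genes, centre, 77 mitochondrial ribosomal protein genes, right, all 21418 autosomal protein-coding genes. At ribosomal protein genes the EB RAD21-GFP line reaches 1.03 upstream of the start, where the ESC RAD21-GFP line is at 0.595.

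Summed over the 500 bp upstream of the 72 starts there were 283 ESC and 282 EB RAD21-GFP reads, and 197 ESC and 115 EB IgG reads. Scaled to library size, the EB to ESC ratio was 1.77 for RAD21-GFP (1.49 to 2.09) and 1.06 for IgG (0.836 to 1.34). RAD21-GFP over IgG was 1.32 in ESCs (1.10 to 1.59) and 2.195 in EBs (1.76 to 2.75). Over all genes this stretch gave EB to ESC ratios of 1.08 for RAD21-GFP and 0.946 for IgG. RAD21-GFP over IgG was 1.37 in ESCs and 1.57 in EBs over all genes. Without the 5 ribosomal protein genes that had an EB site at the start, their EB to ESC ratio of RAD21-GFP in this stretch was 1.53 (1.27 to 1.84). In the 500 bp downstream of the start all 4 libraries dipped, to 96 and 92 RAD21-GFP and 100 and 52 IgG reads. Scaled to library size, the EB to ESC ratio there was 1.70 for RAD21-GFP (1.26 to 2.28) and 0.946 for IgG (0.663 to 1.34). Over all genes these downstream ratios were 0.896 and 0.817. From 1 to 3 kb upstream the EB to ESC ratio of RAD21-GFP was 0.947 (0.845 to 1.06), and from 1 to 3 kb downstream 1.01 (0.899 to 1.13).

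Reads of 35 bases can be placed only where their sequence is unique. The share of unique 35-base stretches was 93.2% in the first 250 bp downstream and 89.4% in the next, against 97.1% in the 250 bp upstream. Over all genes it was 90.6%, 90.7% and 92.8% in the same bins, and their read density dipped after the start as well. Over the whole window the median was 92.2% for ribosomal protein genes and 98.9% for all genes. The part of unique sequence in the dip was not tested.

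For single genes, a ratio of RPM values was formed after adding 1 read to each count, and a ratio of at least 2 was counted as a call. EB over ESC RAD21-GFP was at least 2 at 22 of the 72 genes (30.6%) and at 13.1% of all genes. The opposite ratio reached 2 at 1 gene, Rpl13, or 1.39%, against 11.2% of all genes. The median was 0.60 on the log2 scale for ribosomal protein genes and 0.12 for all genes. The value was above 0 at 58 of 72, against 11902 of all 21418 genes. For IgG the median was 0.24 against 0.01, with 9 genes (12.5%) at least 2 times higher in EBs, against 9.93% of all genes, and 4 (5.56%) lower, against 12.6%. The RAD21-GFP change less the IgG change had a median of 0.65, against 0.07 over all genes.

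The counting interval of the EB to ESC ratio lay wholly above 1 at 9 of the 72 genes, or 12.5%, against 5.69% of all genes, and below 1 at none, against 3.6% of all genes. These 9 were Rpl32, Rpl34, Rpl35a, Rpl37, Rps14, Rps23, Rps26, Rps27a and Rps29. Of the 9, 5 were the genes with an EB site within 1 kb, and these same EB reads had chosen those sites. The other 4 had no site of either list within 1 kb. They were 4 of the 67 ribosomal protein genes without an EB site there, near the 5.69% of all genes. That share over all genes includes genes with an EB site within 1 kb, so the sets are unlike. These 4 were Rpl34, Rpl35a, Rpl37 and Rps23, and the closest summit among them was an EB summit 7027 bp downstream of the start of Rps23.

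**Figure D3:**
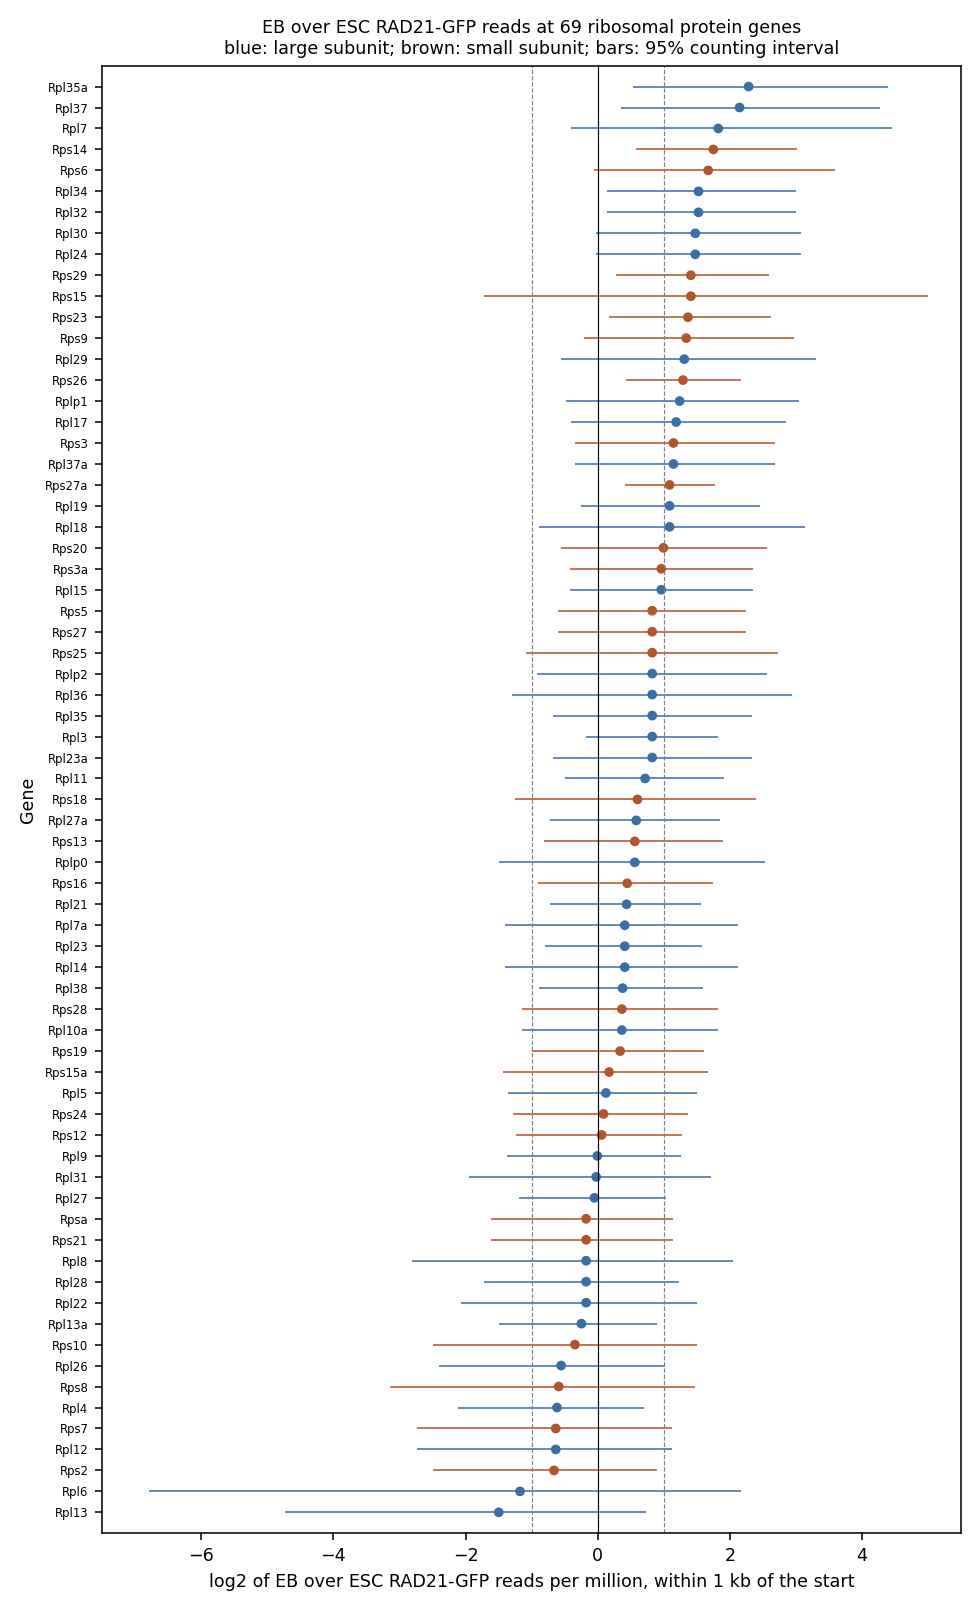
EB over ESC RAD21-GFP reads in RPM within 1 kb of the start on the log2 scale (x axis) for 69 of the 72 ribosomal protein genes in order of the ratio (y axis), without an added read. Points are ratios of 1 library to 1 library, bars the 95% counting intervals, blue the large and brown the small subunit, and dashed lines mark a 2-fold difference. Only 9 bars lie wholly to the right of 0 and none wholly to the left.

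In the large subunit, Rpl35a, a gene mutated in Diamond-Blackfan anaemia, had the highest ratio, with 4 ESC and 11 EB RAD21-GFP reads against 8 and 5 IgG reads. Its log2 value was 2.09 and its ratio without an added read 4.87 (1.44 to 20.98). Rpl37 followed with 4 and 10 RAD21-GFP reads and a log2 value of 1.96, and its IgG reads, 9 and 11, gave a log2 value of 1.13. Rpl7 had 3 and 6 RAD21-GFP and 4 and 3 IgG reads, and its interval, 0.757 to 21.9, included 1. These genes had few ESC reads, so their order is not resolved by the counts.

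At the other end, Rpl13 had 10 ESC and 2 EB RAD21-GFP reads against 3 and 2 IgG reads, a log2 value of -1.05. Its interval of 0.0378 to 1.66 included 1. Rpl4, Rpl6 and Rpl12 were also among the 5 lowest, with log2 values of -0.50, -0.50 and -0.44. Rpl4 had 19 and 7 RAD21-GFP reads, Rpl12 had 11 and 4, and Rpl6 had 4 and 1. The counting interval of each included 1.

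Among the small subunit genes without an EB site at the start, Rps6, the best known phosphorylated protein of the ribosome, had 5 ESC and 9 EB RAD21-GFP reads against 9 and 3 IgG reads, a log2 value of 1.56. Its interval was 0.960 to 12.1. Rps23, a protein of the decoding centre, had 11 and 16 RAD21-GFP reads against 11 and 8 IgG reads, and a ratio of 2.58 (1.12 to 6.14). Rps2 was the lowest of the subunit, with 14 and 5 RAD21-GFP and 12 and 2 IgG reads and a log2 value of -0.50. Both its RAD21-GFP and its IgG reads were lower in EBs. Rpsa, which is also known as the laminin receptor, had 16 and 8 RAD21-GFP reads and a log2 value of -0.09.

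The subunits were close in the RAD21-GFP change. The median log2 EB to ESC value of RAD21-GFP was 0.60 for the 42 large and 0.61 for the 30 small subunit genes, and 13 and 9 of them reached 2-fold, against 13.1% of all genes. For IgG the medians were 0.41 and -0.04. Summed reads gave a RAD21-GFP ratio of 1.46 (1.26 to 1.67) for the large and 1.61 (1.38 to 1.87) for the small subunit, and an IgG ratio of 1.18 (0.988 to 1.41) and 0.913 (0.738 to 1.12). The intervals of the subunits overlapped for both.

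RAD21-GFP was also compared with IgG within each cell type. In ESCs ribosomal protein genes were like other genes: the median ratio was 1.23 against 1.18 over all genes, and 11 of 72 (15.3%) reached 2, against 16.6%. In EBs the median ratio was 1.57 against 1.25, and 22 of 72 (30.6%) reached 2, against 25.6%. The 77 mitochondrial ribosomal protein genes were higher in EBs, with a median of 1.68 and 32 genes at 2 or more. The ratio was higher in EBs than in ESCs at 50 of the 72 ribosomal protein genes, against 11204 of all 21418 genes. Only 2 of the 30 small subunit genes reached 2 in ESCs and 14 did in EBs, while 9 and 8 of the 42 large subunit genes did.

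**Figure D4:**
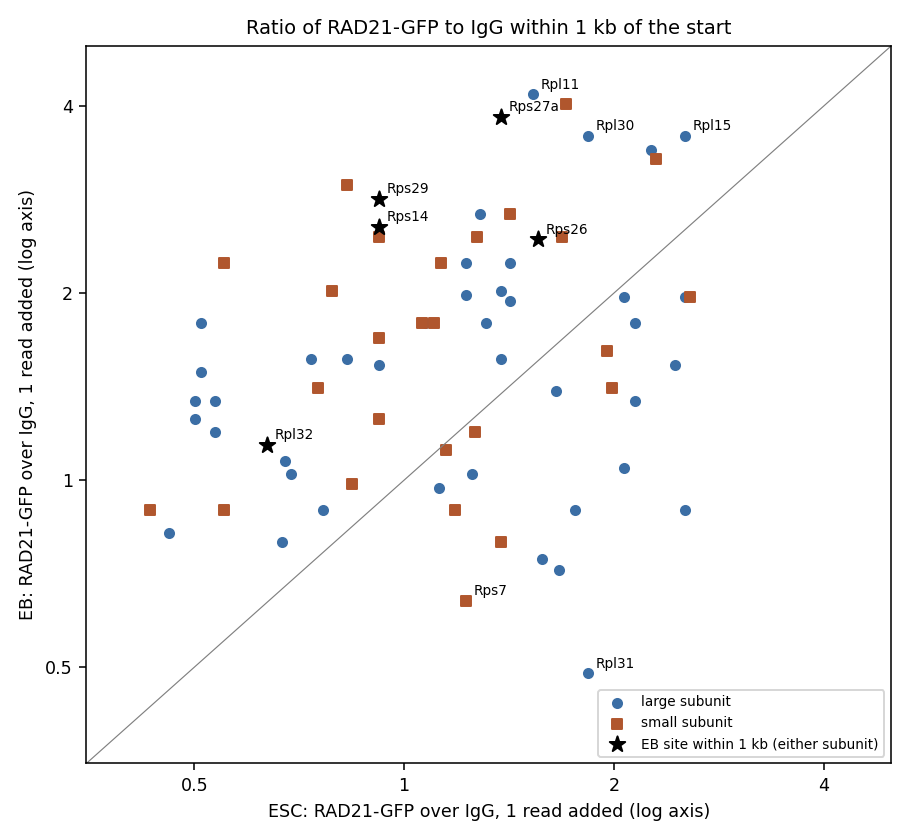
RAD21-GFP over IgG in RPM within 1 kb of the start, with 1 read added, in ESCs (x axis) and EBs (y axis), both on log axes. Each point is a ribosomal protein gene, circles of the large and squares of the small subunit, and stars mark the 5 genes with an EB site within 1 kb. The line marks equal ratios, and 50 of the 72 genes lie above it. Over all 21418 genes, not shown, 11204 would.

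The highest ESC ratios were 2.57 at Rps16 (13 RAD21-GFP and 4 IgG reads) and 2.53 at Rpl13 and Rpl15 (10 and 3 reads each) and at Rpl13a (21 and 7). Rpl38, a large subunit protein known for its part in the translation of Hox messages, followed with 15 and 5 reads. The lowest was Rps18, with 7 RAD21-GFP and 16 IgG reads and a ratio of 0.432, then Rpl37, Rpl18, Rpl36 and Rpl23a between 0.459 and 0.510. In none of the genes with the highest ESC ratios was there an ESC site within 10 kb. Of the 72 ribosomal protein genes 20.8% had one, and of all genes 18.3%, so none among so few says little.

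In EBs Rpl11, which binds Mdm2 when ribosome assembly fails, had the highest ratio, 4.18, from 13 RAD21-GFP and 2 IgG reads. Among the other high ratios, Rps27a had 42 and 9 reads, and Rpl15 and Rpl30 11 and 2 each. The ratios of Rpl11, Rpl15 and Rpl30 rest on 2 IgG reads. Rpl31 was the lowest with 5 and 10 reads and a ratio of 0.488, followed by Rps7, Rpl4, Rpl12 and Rplp2 between 0.639 and 0.796.

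The stalk of the large subunit, which recruits elongation factors, is built from Rplp0, Rplp1 and Rplp2 on a base that holds Rpl12. None of these genes had a site within 10 kb in either list. Of all genes, 18.3% had an ESC and 13.3% an EB summit within 10 kb, so none among 4 genes says little. Rplp0 had 6 ESC and 5 EB RAD21-GFP reads, Rplp1 had 6 and 8, and Rplp2 had 7 and 7. Their log2 EB to ESC values were 0.60, 1.19 and 0.83, and Rpl12 was at -0.44. In no library did a stalk gene exceed 11 reads.

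The 10 autosomal genes listed for Diamond-Blackfan anaemia, an inherited failure of red cell production, had a median log2 EB to ESC value of 0.21, and 2 of them, Rpl35a and Rps26, reached 2-fold, where 13.1% of all genes did. Of these 10 genes 2 had an ESC and 3 an EB site within 10 kb, against 18.3% and 13.3% of all genes. Of the ribosomal proteins outside the symbol rule, Fau and Gnb2l1 had log2 values of -1.17 and 0.39. Among 6 measured paralogs, Rpl7l1 had sites of both lists within 1 kb of its start, 606 bp away in ESCs and 232 bp in EBs, with 50 and 27 RAD21-GFP and 14 and 8 IgG reads. None of the 72 ribosomal protein genes had an ESC site so close.

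Of the other translation genes, those of the mitochondrial ribosome gave a similar picture. The 77 autosomal genes of the mitochondrial ribosome had a median log2 EB to ESC value of 0.58, with 23 at least 2 times higher in EBs and 2 lower. In the 500 bp upstream their summed EB to ESC ratio was 1.62 (1.37 to 1.93) for RAD21-GFP and 0.949 (0.733 to 1.22) for IgG. RAD21-GFP over IgG in that stretch was 1.45 in ESCs (1.20 to 1.76) and 2.49 in EBs (1.96 to 3.18). The 14 translation factors and related genes with pyrimidine-rich starts, such as Eef1a1 and Tpt1, had a median of 0.62, with 3 at least 2-fold higher and none lower. Their IgG median was 0.39, however, and the RAD21-GFP change less the IgG change had a median of 0.03, against 0.50 for the mitochondrial and 0.65 for the cytosolic ribosomal protein genes. RAD21-GFP over IgG was higher in EBs at 7 of these 14 genes and at 51 of the 77, against 11204 of all 21418 genes.

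Many of these genes start in CpG-rich sequence, here a window with an observed to expected CpG ratio of at least 0.6 and a GC content of at least 50%. This held for 47 of the 72 ribosomal protein genes and for 6529 of all genes. Among genes with such starts, EB over ESC RAD21-GFP reached 2 at 11 of 47 ribosomal protein genes (23.4%) and at 19.5% of all. Among the others it did so at 11 of 25 (44%) and at 10.3% of all. These groups were not alike in CpG content. The median CpG ratio was 0.608 at the 25 ribosomal protein genes and 0.301 over all genes with other starts. Summed over the window, CpG-rich genes as a whole had an EB to ESC ratio of 1.24 (1.23 to 1.26) for RAD21-GFP and 0.957 (0.941 to 0.972) for IgG. The ribosomal protein genes among them had 1.47 (1.29 to 1.68) and 1.12 (0.944 to 1.33), so the IgG ratio was higher there too. The RAD21-GFP change less the IgG change had a median of 0.51 at these ribosomal protein genes, against 0.27 over all CpG-rich genes. In EBs the median of RAD21-GFP over IgG was 1.61 over all CpG-rich genes and 1.57 at the ribosomal protein genes among them. This ratio reached 2 at 2484 of 6529 and at 14 of 47 genes. Summed over the 500 bp upstream, RAD21-GFP over IgG in EBs was 2.07 (2.01 to 2.14) over all CpG-rich genes. The part of CpG content in these values was not tested beyond this. When each gene was set against the median of all genes in its band of GC content, in 5 bands chosen after seeing the data, the median log2 EB to ESC value of RAD21-GFP at ribosomal protein genes was 0.51.

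In the 200 bases before to 30 bases from the start, CCGGAAG, bound by ETS factors, was found on either strand at 17 of 72 ribosomal protein genes, or 23.6%, and at 9.78% of all genes. GGGCGG, bound by SP1 and its relatives, was as frequent as elsewhere, at 41.7% against 41.1%. TATAAA was found at 8.33% against 10.8%, and AAGATGGC, bound by YY1, at 2.78% against 2.33%. A run of at least 5 pyrimidines over the annotated start was present at 7 genes (9.72%, all genes 9.19%). The base at the start was C at 20 of 72 (27.8%, all genes 15.4%). The most upstream annotated start was used, and such runs may begin at another base. Ribosomal protein genes with and without CCGGAAG had median log2 EB to ESC values of RAD21-GFP of 0.63 and 0.58. For GGGCGG these medians were 0.45 and 0.83, for TATAAA 0.89 and 0.53, and for AAGATGGC, at 2 genes, 0.94 and 0.59. For the pyrimidine run, at 7 genes, they were 0.15 and 0.63. These differences were not tested.

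On chromosome X, the rule's genes Rpl10, Rpl36a and Rpl39 had no site within 10 kb in either list. The closest was an EB site 10762 bp from Rpl39. Of autosomal genes, 18.3% had an ESC and 13.3% an EB summit within 10 kb.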

How the data were processed

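The authors sequenced 1 RAD21-GFP and 1 IgG library each of ESCs and EBs and deposited aligned positions of 35-base reads on mm9, 1 count per line. The aligner is not given in the sources used here. No position and strand was repeated. Since the EB IgG reads break off partway along chromosome X, autosomes alone were used, and 7 broken lines of the ESC IgG reads were skipped. The authors called sites with MACS in each cell type against its IgG library, 1 library each. The deposited score of a site is its p-value as log10, multiplied by -10, and the deposited signal of a summit is the height of piled-up reads, not scaled between libraries.

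Reads were moved to the fragment centre, with fragment lengths of 206 bp in ESCs and 197 bp in EBs estimated from the reads, and counted within 1 kb of the most upstream start, in reads per 1000000 autosomal reads. At 4 to 11 reads for a typical gene, single ratios are imprecise. Intervals for ratios are exact conditional binomial intervals at the 95% level. They, like all values here, compare libraries and not conditions. Ratio and interval code was tested on simulated counts. ESC and EB sites that overlapped by at least 1 base were called overlapping. A CTCF matrix of width 20 was learned near ESC summits on odd-numbered chromosomes and applied to the rest, and the other way round. Genome and annotation (GENCODE vM1) were of the same build, and all sequences were read from that genome. Python 3.11.15, numpy 2.4.6, pandas 2.3.3, scipy 1.17.1 and pysam 0.24.0 were used.

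The genes, lists and motifs were chosen with earlier results of these data known, and the split motif after reading the sequences. Named genes were those with a summit within 1 kb, the 10 with the nearest summits, the 5 highest and 5 lowest in each ratio, the stalk genes and Rpsa. Some items that this rule names, and some sequences, are not reported here. Others are named to complete a count of shared sites, intervals or list genes, after their values were seen. Alternatives covered distances, score, windows, added reads, scaling, read position, starts, chromosomes, unique sequence and low counts. Those without EB sites at starts and within 5 bands of GC content were added after seeing the data.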

Additional observations from a re-analysis of the deposited data

How the results depend on the processing

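No paired analysis was possible because each group held 1 library, which also leaves no replicate to leave out. Of 63 alternative values 51 stayed within 1.5 times the count or within the counting interval, and no log2 value changed sign. With 5 kb in place of 10 kb, 2 genes had an ESC and 8 an EB site, with 25 kb 42 and 35 (58.3% and 48.6%, all genes 38.7% and 28.7%), and with a score of at least 100, 7 and 7 (9.72% each, all genes 8.51% and 6.01%). Reads within 500 bp gave a median log2 EB to ESC value of RAD21-GFP of 0.83, and within 2 kb 0.44, where the value less that of IgG was 0.39. Scaling by the median count over all genes moved the median RAD21-GFP to IgG ratio to 0.970 in ESCs, below 1 where it had been above, and to 1.17 in EBs. Over all genes that scaling gave 0.935 and 0.933. Among the 45 genes with at least 90% unique stretches the EB ratio was 1.79. The cause was not tested for any of these. Without the 5 genes with an EB site at the start the median log2 value of RAD21-GFP was 0.48, and less the median of genes of like GC content, in 5 bands, 0.51. The alternative start differed at 3 of 72 genes. About 10 reads per gene limit the order of single genes.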
